A study of Equus caballus with 3 samples.

Results

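The 7 chemokines CCL2, CCL7, CXCL6, CXCL8, CXCL12, CCL5 and CXCL10 were followed across equine mesenchymal stromal cells (MSCs) derived from 3 sources, namely adipose tissue (AT), the marrow of bone (BM) and circulating blood (PB). They were chosen by name as chemokines and because earlier results of these data had shown differences in their levels and in how cells held them. All 7 were listed in each of the 3 deposited matrices, among 29927 genes listed in any of them. The cells came from 1 warmblood mare aged 10 years, were expanded in culture for 2 passages, and gave 1 droplet-based scRNA-seq library per source. No treatment or genetic change was applied in any group, so that source, library and culture cannot be told apart and no comparison between sources had a replicate. The titles of the samples name AT, BM and PB, whereas the deposited source name of all 3 samples reads as mononuclear cells of the blood.

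Chemokines are small secreted proteins that bind glycosaminoglycans and guide cells bearing G protein-coupled receptors along their gradients. CC chemokines such as CCL2, CCL7 and CCL5 attract monocytes, T cells and other leukocytes, CXC chemokines with an ELR motif such as CXCL6 and CXCL8 attract neutrophils, and CXCL10 is induced by interferons and attracts activated T cells. CXCL12 is produced by stromal cells of the marrow, where it retains blood-forming stem cells, and cultured MSCs are known as producers of several of these factors.

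A kept cell was a barcode with 2500 to 15000 unique molecular identifiers (UMIs, each standing for 1 captured transcript) and at most 3% of UMIs from the mitochondrial chromosome. This left 5403 AT, 5580 BM and 5318 PB cells with 6874.5 to 7750 median UMIs per cell and 39980656 to 41622445 UMIs per source. Levels are UMIs summed over the kept cells and scaled to a total of 1000000 per source (CPM), and shares are percentages of kept cells with at least 1 UMI. Intervals are exact 95% Poisson intervals for sums and Clopper-Pearson intervals for shares. For a fold between sources, the interval is the Clopper-Pearson interval of a source's part in the UMIs of both. For a log2 ratio, opposite 95% bounds of the sums were subtracted, so that this interval is wider. All of them cover counting error only. The libraries shared barcodes unevenly. Every one of the 5318 kept PB barcodes was also listed in the AT matrix, where 37 of them were kept cells, and 74 of the 5403 kept AT barcodes were listed in PB. All 10 stromal markers checked, COL1A1, COL1A2, COL3A1, VIM, PDGFRB, THY1, ENG, CD44, LUM and DCN, were detected in every source and together reached 26071 to 38342 CPM. The 13 leukocyte markers listed in the files summed to 298, 520 and 232 UMIs in AT, BM and PB. Most of these were UMIs of CD68, with 275, 444 and 202 UMIs in 270, 415 and 196 cells. FCER1G had 6, 57 and 10 UMIs, while PTPRC, CD163, MS4A1 and CD3D had none in any source. The 5 endothelial markers listed summed to at most 8 UMIs per source, and of the 3 platelet markers listed, PPBP and GP9 had no UMI in any and ITGA2B had 92 to 114. No cell population known to lack the chemokines was in the libraries, so that UMIs from free RNA could not be measured apart.

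Together the 7 chemokines reached 28.7 CPM in AT-, 640.3 CPM in BM- and 711.6 CPM in PB-derived MSCs. At least 1 of them was found in 9.88% of the AT cells, 73.3% of the BM cells and 56.7% of the PB cells, and in 4.59%, 52.6% and 37.8% once every cell was thinned to 2500 UMIs. CCL2 gave 56.8%, 86.3% and 78.7% of these UMIs. Cells with 3 or more of the 7 were few, at 0.148%, 3.71% and 2.82%, and no cell held more than 5. At 2500 UMIs per cell these shares were 0.0555%, 0.771% and 1.11%, so that PB and not BM then had the higher share. As a description of size, 2 sources were set apart for a gene where log2(CPM + 1) differed by more than 1, among genes with at least 1 CPM in either. CCL5 stayed under 1 CPM in every source, and CXCL10 stayed under it in both BM and AT. Of the 6 members with 1 CPM or more in PB or BM, 3 were higher in PB (CCL7, CXCL8 and CXCL10) and 1 was higher in BM (CXCL12), where 8.78% of 11805 genes differed in either direction, 2.47% higher in PB and 6.31% higher in BM. Of the 6 compared between PB and AT, 5 were higher in PB and CXCL12 was higher in AT, against 11.2% of 11721 genes, 6.22% higher in PB and 4.96% higher in AT. All 5 compared between BM and AT were higher in BM, against 11.6% of 11862 genes, 8.78% higher in BM and 2.86% higher in AT. Not all of these calls held under every alternative. With a pseudocount of 25 CPM, 5 of the 15 differences over the 3 pairs were left, while fewer of all genes passed too. Between BM and AT, CCL7, CXCL6, CXCL8 and CXCL12 were then lost, and CXCL8 was lost under other alternatives as well. The median log2 ratio of the members was 0.64 for PB over BM, 3.38 for PB over AT and 2.49 for BM over AT, beside -0.20, 0.04 and 0.24 over all genes. These differences were among the values by which the genes were chosen and are given as a description.

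**Figure D1:**
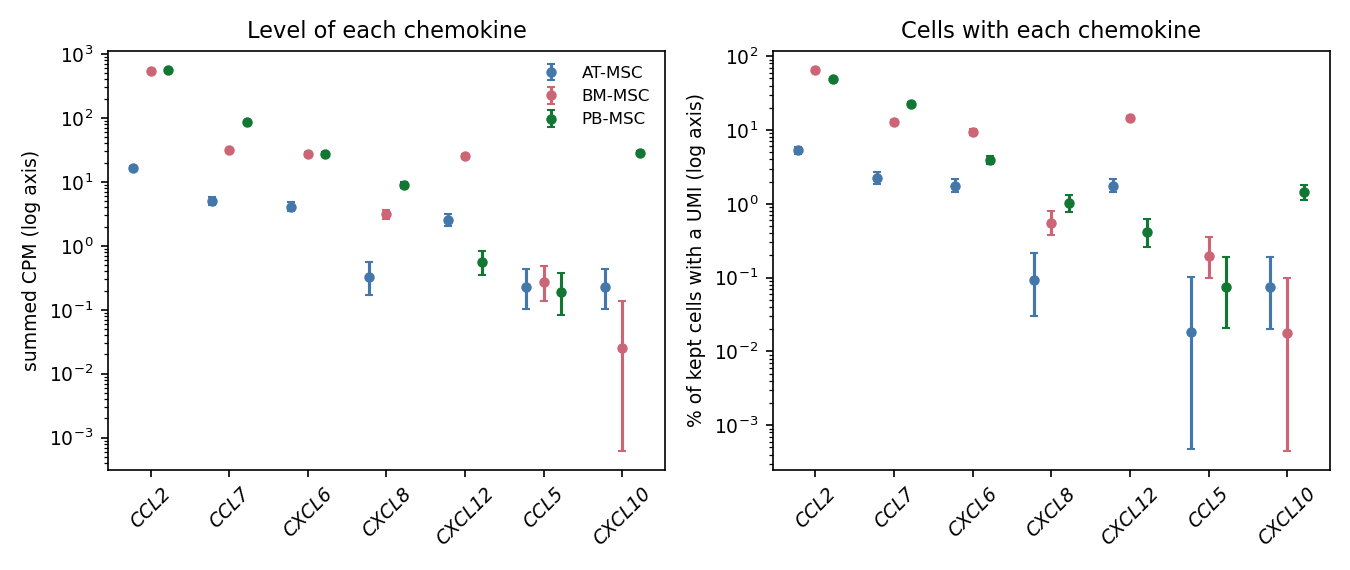
Summed CPM of each chemokine (left, log axis) and the percentage of kept cells with at least 1 UMI of it (right, log axis) in AT-, BM- and PB-MSCs, 1 library each, with 95% counting intervals. CCL2 and CXCL6 lie at the same level in BM and PB (552.5 and 560.0 CPM for CCL2) while their shares of cells differ (64.1% and 49.5%), CXCL12 stands highest in BM, and CXCL10 reaches 28.7 CPM in PB alone among the 3.

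CCL2, also called MCP-1, attracts monocytes. Its summed level was 16.3 CPM (15.1 to 17.6) in AT, 552.5 CPM (545.3 to 559.8) in BM and 560.0 CPM (552.9 to 567.3) in PB. BM and PB thus differed by 0.02 on the log2 scale, with a counting interval of -0.02 to 0.06, while each exceeded AT 33.8-fold and 34.3-fold. The transcripts were spread differently over the cells. CCL2 was found in 64.1% of BM cells (62.8% to 65.3%) and in 49.5% of PB cells (48.1% to 50.8%), and at 2500 UMIs per cell in 45.6% and 32.5%. A cell with CCL2 held 6.22 UMIs of it on average in BM and 8.86 in PB. The 5% of cells richest in CCL2 held 38.9% of its UMIs in BM and 57.9% in PB, beside a median of 56.8% and 57.7% over all genes at 1 CPM or more. The 448 richest BM cells and the 192 richest PB cells each held 50% of the transcripts, and the highest cell had 149 UMIs in BM and 351 in PB. The ratio of variance to mean over cells at 2500 UMIs was 4.25 in AT, 6.25 in BM and 13.6 in PB. By it CCL2 ranked 12th of 11154 genes in AT, 11th of 11513 in BM and 3rd of 11181 in PB. In AT, CCL2 was found in 287 of 5403 cells, 9 of them with 10 or more UMIs. Of the 653 AT UMIs of CCL2, 82 came from the 74 AT cells whose barcodes PB also listed, in which the level was 184.6 CPM. Without barcodes that another library also held, the log2 ratio of BM over AT was 5.15 instead of 5.0. With all barcodes of 500 to 15000 UMIs it fell to 3.01, and that of PB over AT fell from 5.02 to 3.02. Of the CCL2 UMIs in AT barcodes under 2500 UMIs, 2574 lay at barcodes that PB also listed, at 523.4 CPM, and 9 at barcodes it did not list, at 14.7 CPM.

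**Figure D2:**
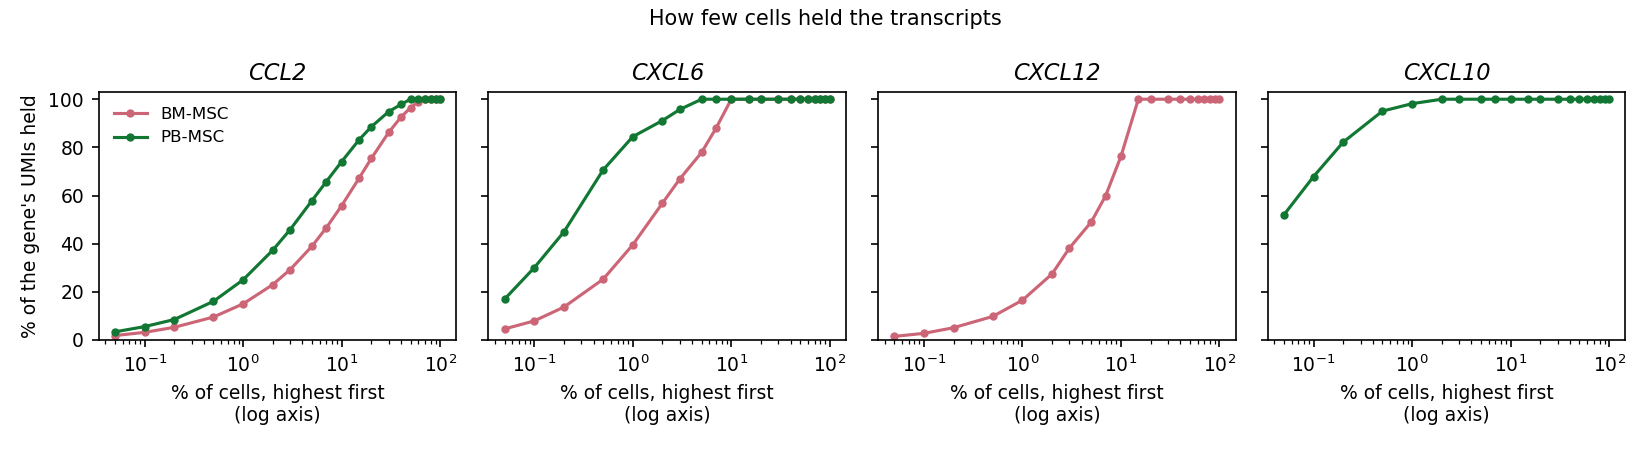
Cumulative share of a gene's UMIs (vertical) held by a given percentage of kept cells taken from the richest down (horizontal, log axis), for BM- and PB-MSCs; CXCL12 is drawn for BM and CXCL10 for PB, where most of their UMIs lay. The PB curves of CCL2 and CXCL6 lie above the BM curves, so that fewer PB cells held the same summed level.

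CCL7, or MCP-3, attracts monocytes and eosinophils. It lay at 4.98 CPM in AT, 31.2 CPM in BM and 85.7 CPM in PB, and in 2.26%, 12.9% and 22.5% of cells. PB exceeded BM 2.74-fold, with a counting interval of 2.57 to 2.93. Here both the number of cells and the content per cell were higher in PB, since a cell with CCL7 held 1.74 UMIs on average in BM and 2.97 in PB, and the highest cell held 17 and 94. With all barcodes of 500 to 15000 UMIs the log2 ratio over AT was 2.67 instead of 3.86 for PB and 1.24 instead of 2.43 for BM. Here too 387 of the CCL7 UMIs in AT barcodes under 2500 UMIs lay at barcodes listed in PB, and 3 at others. The richest 5% of cells held 64.8% of the UMIs in BM and 64.1% in PB, but 84.9% and 69.1% at 2500 UMIs per cell, where CCL7 was left in 6.31% and 11.5% of cells. A gene found in fewer than 5% of cells gives 100% by this measure, so that it is not used for the rarer members.

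CXCL6, a neutrophil attractant, followed CCL2 in having like sums but unlike cells. It reached 4.10 CPM (3.50 to 4.78) in AT, 27.7 CPM (26.1 to 29.4) in BM and 27.6 CPM (26.1 to 29.3) in PB, so that BM and PB differed by less than counting error. The transcript was found in 525 BM cells (9.41%) and in 209 PB cells (3.93%). In BM, 50% of the UMIs lay in 87 cells with at most 20 UMIs each, and in PB in 14 cells with at most 79. The variance over the mean at 2500 UMIs was 2.23 in BM and 9.51 in PB. Without the 1% of cells richest in CXCL6 the log2 ratio of PB over BM was -1.75 instead of -0.0028, a difference that follows from leaving out cells by their CXCL6 content, which was held by fewer cells in PB. Without cells holding a UMI of a proliferation gene it was 0.63, with 14.3 CPM in BM and 22.6 CPM in PB.

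CXCL8, or interleukin 8, the best known neutrophil attractant, was rarer. It gave 13 UMIs in 5 AT cells, 125 in 31 BM cells and 368 in 54 PB cells, which is 0.325, 3.11 and 8.84 CPM. In BM and in PB alike, 4 cells held 50% of the UMIs, and 1 cell held 19.2% in BM and 23.4% in PB. The sums of CXCL8 therefore rest on a few cells. The log2 ratio of BM over AT, 1.63, was 0.84 at 2500 UMIs per cell, 0.82 with all barcodes of 500 to 15000 UMIs and 0.11 without cells holding a proliferation UMI, and so did not stay past the limit. In RefSeq's thoroughbred assembly, CXCL6 and CXCL8 are neighbours on chromosome 3, next to PPBP, CXCL2 and CXCL1, and CCL2 lies near CCL11, CCL8 and CCL13 on chromosome 11. CCL7 was not found by symbol among the protein-coding genes of that assembly's table. The deposited matrices place CXCL6 and CXCL8 on chromosome 3 and CCL2 and CCL7 on chromosome 11. Whether reads of related genes were split in counting was not tested, and the levels of CCL2, CCL7, CXCL6 and CXCL8 are uncertain to that extent.

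CXCL12, or SDF-1, showed another pattern. It lay at 2.55 CPM (2.08 to 3.10) in AT, 25.4 CPM (23.9 to 27.1) in BM and 0.553 CPM (0.350 to 0.829) in PB. The log2 ratio of PB over BM was -4.09, and that of BM over AT was 2.90. The 1024 BM transcripts lay in 801 cells, 14.4% of all, at 1.28 UMIs per cell with the gene and at most 5 in any cell. Its variance over the mean at 2500 UMIs was 1.17 in BM, the 587th highest of 11513 genes, beside a median of 1.02 over all of them. CCL2, CCL7, CXCL6 and CXCL8 lay between 1.86 and 6.25 in the same cells, at ranks from 11 to 104. The CXCL12 level of BM cells moved with depth and with proliferation. It was 41.2 CPM in the third of cells with the fewest UMIs and 15.2 CPM in the third with the most, and 19.7 CPM in cells with a UMI of a proliferation gene against 31.6 CPM in the others. The part of depth and proliferation in the differences between sources was not tested. Without cells holding a proliferation UMI the log2 ratio of PB over BM was -4.28.

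CXCL10, or IP-10, was held by few cells. AT had 9 UMIs in 4 cells, BM had 1 UMI, and PB had 1195 UMIs in 76 cells, which is 0.225, 0.0249 and 28.7 CPM. The ratio of PB to BM was 1155 with a counting interval of 207.0 to 45669, and that of PB to AT was 127.5 (67.0 to 279.6). Of the 9 AT UMIs, 6 lay in 1 cell whose barcode was also a kept PB cell. The richest PB cell held 234 UMIs, 19.6% of all, and 3 cells held 50%. At 2500 UMIs per cell the variance over the mean was 25.4, the 2nd of 11181 genes. Without the 1% of cells richest in CXCL10, the log2 ratio of PB over BM was 0.62 instead of 4.86, and that of PB over AT 0.62 instead of 4.60. The cells left out were chosen by their CXCL10 content and held most of it, so that these values only restate how few cells had it. With all barcodes of 500 to 15000 UMIs the log2 ratio of PB over AT was 2.95. All 125 CXCL10 UMIs of AT barcodes under 2500 UMIs lay at barcodes that PB also listed. CCL5, or RANTES, a T cell and monocyte attractant, had 9, 11 and 8 UMIs in AT, BM and PB. The 9 AT UMIs lay in 1 cell and the 11 BM UMIs in 11 cells, and no difference between sources was detectable at this depth, as the counting interval of PB over BM ran from 0.246 to 1.92.

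Cells with CCL2 tended to hold CCL7 in every source, while finds of CXCL6 and CXCL12 with CCL2 varied between sources. The odds of finding both genes in a cell were compared within 10 strata of cells by UMI number, since deeper cells show more of every gene. The odds ratio of CCL2 and CCL7 was 8.62 in AT (38 cells with both), 2.56 in BM (581 cells) and 3.38 in PB (877 cells). Among all genes found in at least 1% of cells, 2%, 0.263% and 0.799% had an odds ratio over 2 with CCL2 in AT, BM and PB. CCL2 and CXCL6 had 4.35 in AT, 1.11 in BM and 5.01 in PB, with 18, 358 and 176 cells holding both. CCL7 and CXCL6 likewise had 5.11 in AT, 0.917 in BM and 3.58 in PB. An odds ratio over 2 with CCL7 was reached by 7.55%, 0.553% and 0.687% of genes in AT, BM and PB, and with CXCL6 by 6.21%, 2.25% and 4.63%. CXCL6 and CXCL8 were found together in all sources, with 21 cells and an odds ratio of 11.9 in BM and 26 cells and 20.8 in PB. The size of these ratios depended on the way of counting. At 2500 UMIs per cell that of CCL2 and CCL7 in AT was 26.1, that of CCL2 and CXCL6 in AT 7.53 and that of CXCL6 and CXCL8 in PB 80.9. CXCL12 was close to 1 with CCL2 and CCL7 in BM, at 1.22 and 1.0. With CCL2 it had 0.373 in AT and 1.41 in PB, with 2 and 13 cells holding both. With CXCL6 it had 1.34 in BM, and 2.54 among the cells without a proliferation UMI, 52 of which held both, against 0.844 among those with one. These values describe cells of 1 library per source and carry no test.

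Thinned to 2500 UMIs, the PB cells were sorted by their CCL2 content into 3588 cells with none, 745 with 1, 587 with 2 to 4, 233 with 5 to 9 and 165 with 10 or more. CCL7 was found in 6.58%, 10.2%, 19.9%, 32.2% and 63.6% of these classes. CXCL6 was found in 0.780% of PB cells without CCL2 and in 19.4% of those with 10 or more UMIs, and CXCL8 in 0.167% and 9.09%. In BM the 129 cells with 10 or more CCL2 UMIs held CCL7 in 24.8% and CXCL6 in 13.2%, against 4.12% and 4.28% of the 3037 cells without CCL2. The BM share with CXCL6 lay between 3.86% and 5.16% in the classes below 10 UMIs, so that it stood apart in the top class only. CXCL12 in BM ran from 5.14% to 10.9% over the same classes.

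**Figure D3:**
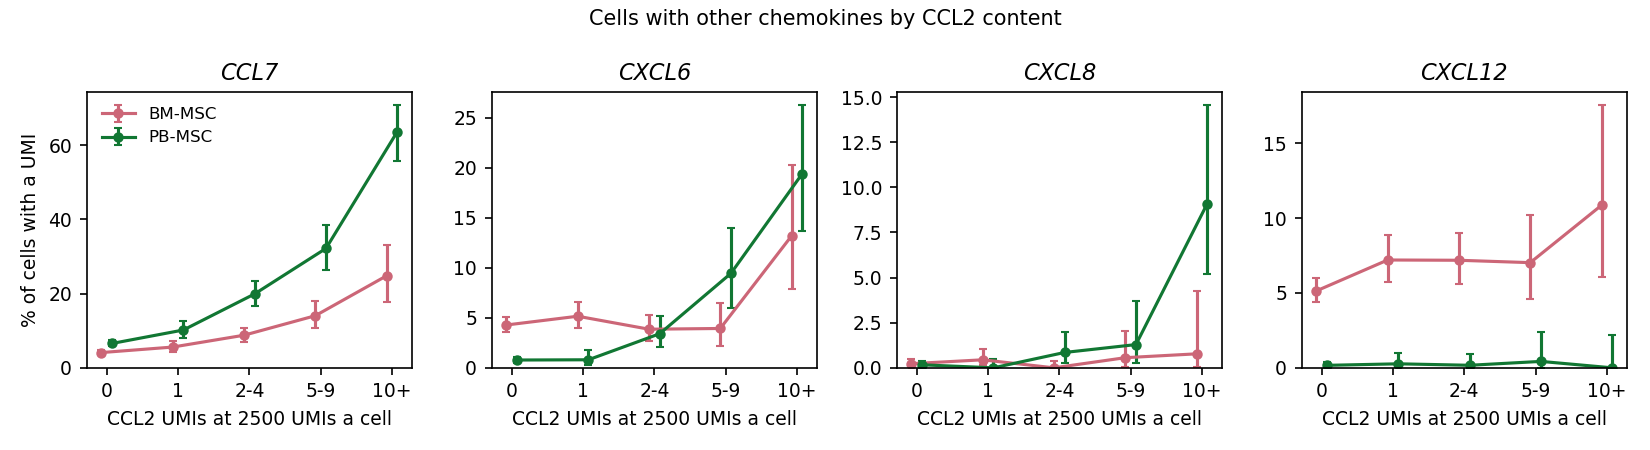
Percentage of kept cells with a UMI of CCL7, CXCL6, CXCL8 or CXCL12 (vertical, each panel with its own scale from 0) by the number of CCL2 UMIs in the cell (horizontal), at 2500 UMIs per cell, with 95% Clopper-Pearson intervals, for BM- and PB-MSCs. CCL7 climbs with CCL2 to 63.6% in PB and 24.8% in BM, and CXCL12 is near 0 in PB at every CCL2 content.

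Several of these values differed between cells with and without a UMI of a proliferation gene. At least 1 UMI of 11 proliferation genes, such as MKI67, TOP2A and CDK1, occurred in 37.1% of the AT cells, 46.3% of the BM cells and 29.5% of the PB cells. These cells were also deeper, with a median of 7800 UMIs against 7017 in AT, 7777 against 6295 in BM and 8330 against 7542 in PB. In BM, cells with such a UMI had 40.2 CPM of CXCL6 against 14.3 CPM in the others, and 5.76 CPM of CXCL8 against 0.258 CPM. CCL2 went the other way in BM, with 459.2 CPM against 652.7 CPM, and was higher in the PB cells with a proliferation UMI, with 700.9 CPM against 492.5 CPM. CXCL8 in PB was 21.5 CPM against 2.77 CPM. The odds ratio of CCL2 and CXCL6 in BM was 0.901 among the 2581 cells with a proliferation UMI and 2.43 among the 2999 without. In PB it was 8.36 and 3.44. That of CCL2 and CCL7 was 2.76 and 2.35 in BM and 3.43 and 3.30 in PB. The parts of proliferation and depth in these contrasts and in the difference between BM and PB were not tested.

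**Figure D4:**
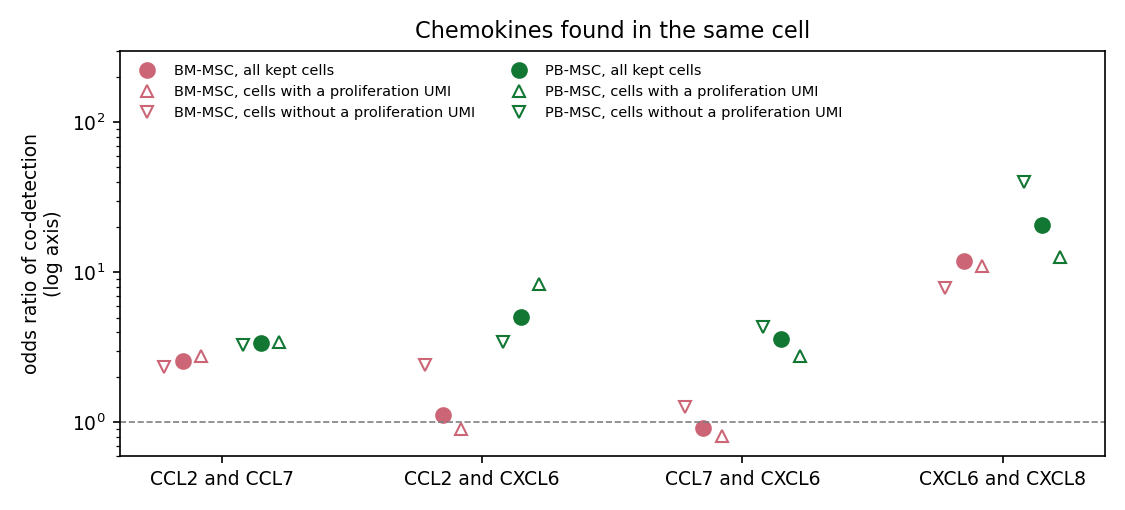
Odds ratio of finding both chemokines in a cell within 10 strata of cells by UMI number (vertical, log axis; the dashed line marks 1) for 4 pairs in BM- and PB-MSCs, in all kept cells (filled circles) and in cells with (upward triangles) or without (downward triangles) a proliferation UMI. CCL2 and CXCL6 stand at 1.11 in BM and 5.01 in PB over all cells, and in BM at 2.43 in the cells without a proliferation UMI.

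In PB the cells with CXCL6, CXCL8 or CXCL10 were compared with all other PB cells for listed genes of inflammation and interferon response. The 209 cells with CXCL6 had a median of 9023 UMIs against 7707. Of the 21 NF-kB and inflammation genes with 1 CPM or more in either set, 13 were higher by a log2 ratio over 1 and none lower, where 3.85% of all 11901 genes were higher and 1.89% lower. Of the 13, IL6, IL1A and PTGS2 had under 1 CPM in the other cells and were counted only because of their level in the CXCL6 cells, as were 100 of the 458 higher genes overall. Among the 17 listed genes with 1 CPM or more in the other cells, 10 were higher, beside 3.21% of all genes so restricted. ICAM1, an adhesion molecule for leukocytes, lay at 38.5 CPM in the CXCL6 cells and 3.50 CPM in the others. Among chemokines, CCL20, which attracts cells bearing CCR6, lay at 325.7 CPM against 3.15 CPM, CXCL1 at 150.3 CPM against 8.24 CPM, and CXCL8 at 150.3 CPM against 1.89 CPM. Of the 18 interferon genes, 2 were higher and 2 lower, 1 of the latter (MX2) with no UMI in the CXCL6 cells. Of the 54 cells with CXCL8, 33 held a UMI of a proliferation gene, while 29.5% of all PB cells did. The part of proliferation in this contrast was not tested. In the 54 cells, 10 of 21 NF-kB and inflammation genes were higher, where 12.4% of genes were, and IL6 and IL1A were counted only through these cells. So were 483 of the 1478 higher genes overall. Among the 18 listed genes with 1 CPM or more in the other cells, 8 were higher, beside 995 of 11155 genes so restricted. CCL2 reached 4553 CPM against 509.9 CPM. Of 18 interferon genes 8 were lower, where 12.1% of all genes were, but 7 of the 8 had no UMI in these cells, in which 1 UMI stands for 1.94 CPM, so that no direction is read from them.

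The 76 PB cells with CXCL10 were compared with the other PB cells in the same way. Of 20 interferon genes, 16 were higher and none lower, where 7.26% of 12017 genes were higher and 8.27% lower, and 14 still were without the 3 richest cells, where 7.31% of all genes were. Of the 16, MX2, IFIT2, IFIH1, CXCL9 and CXCL11 had under 1 CPM in the other cells and were counted only because of their level in the CXCL10 cells, as were 426 of the 872 higher genes overall. Among the 15 listed genes with 1 CPM or more in the other cells, 11 were higher, beside 3.99% of all genes so restricted. CXCL11, a ligand of CXCR3 as is CXCL10, had 446 of its 451 PB UMIs in these cells, in 13.2% of them, at 698.8 CPM against 0.122 CPM, and 116.8 CPM without the 3 richest cells. CXCL9, the other ligand of CXCR3, had all its 22 UMIs there, of which 8 in 2 cells were left without the 3 richest. The interferon-induced GTPase GBP1 lay at 391.7 CPM against 7.05 CPM and was found in 39.5% of the CXCL10 cells, and the ubiquitin-like ISG15 at 579.7 CPM against 42.3 CPM. VCAM1, an adhesion molecule for lymphocytes, lay at 90.9 CPM against 0.903 CPM. Without the 3 richest cells GBP1 lay at 199.1 CPM, ISG15 at 492.0 CPM and VCAM1 at 41.1 CPM. Of 21 NF-kB and inflammation genes, 11 were higher in the CXCL10 cells, where 7.26% of all genes were. IL1A, VCAM1 and CSF1 were counted only through these cells. Among the 17 listed genes with 1 CPM or more in the other cells, 8 were higher, beside 3.99% of all genes so restricted.

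CXCL10 was found in 1.43% and CXCL8 in 1.02% of all PB cells, so that absence of either from 5 cells tells little. The 5 PB cells with most CXCL8 held 21 to 86 UMIs of it, 58 to 181 of CCL2 and none of CXCL10. The 5 with most CXCL10 held 62 to 234 UMIs of it, 31 to 351 of CCL2 and none of CXCL8. Over all cells, 3 of the 54 CXCL8 cells and 12 of the 209 CXCL6 cells also held CXCL10. The odds ratio with CXCL10 within strata of depth was 3.58 for CXCL8 and 4.42 for CXCL6. That of CXCL8 rests on the 3 cells with both, so that no tendency is read from it. In BM, where CXCL10 had 1 UMI, the 5 cells richest in CXCL8 held 3 to 10 UMIs of CXCL6, which was found in 9.41% of all BM cells.

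**Figure D5:**
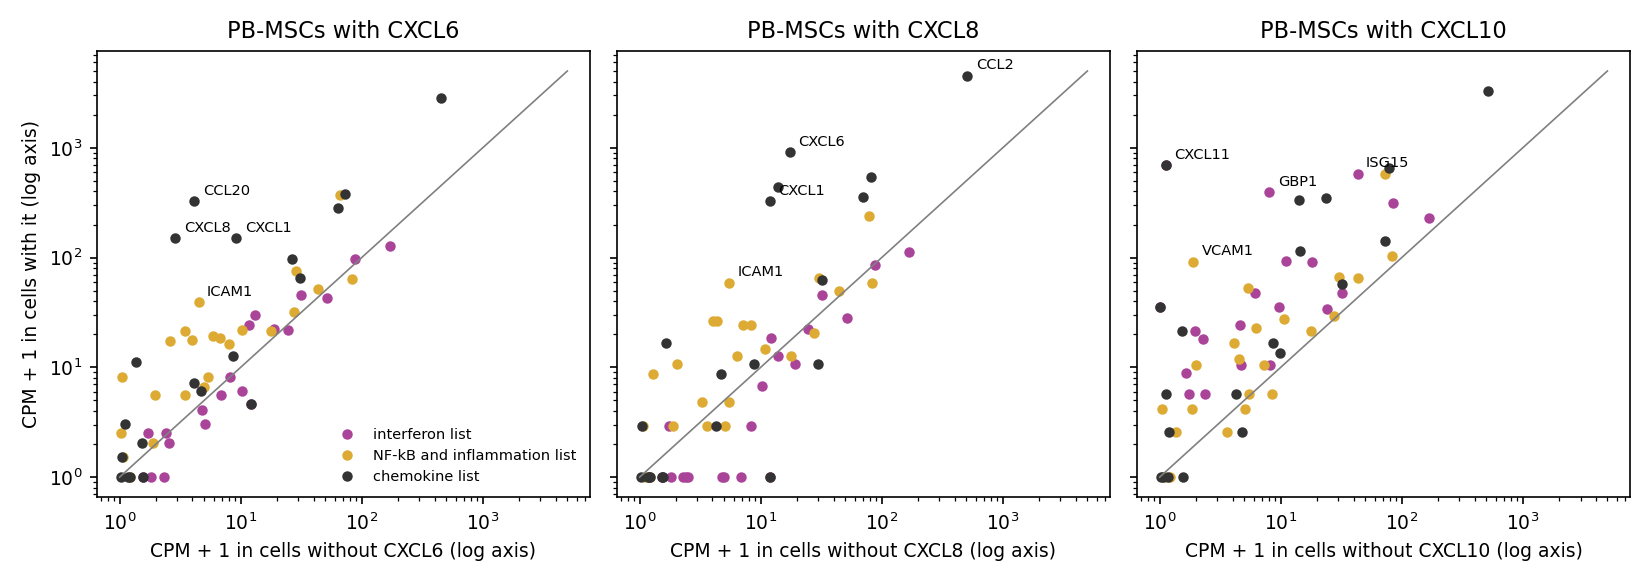
Levels of listed chemokine, NF-kB and inflammation, and interferon genes (CPM + 1, log axes) in PB-MSCs with CXCL6, CXCL8 or CXCL10 (vertical) against the other PB-MSCs (horizontal); the line marks equal levels, and CXCL9 and CXCL11, which are on both lists, are drawn as chemokines. In the CXCL10 panel 16 of 20 interferon genes lie above the line by a log2 ratio over 1, 5 of them with under 1 CPM in the other cells.

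Across single PB cells, the genes most correlated with CCL2 on log2(UMIs per 10000 + 1), among those found in at least 5% of cells, included CCL7 (Pearson's r = 0.49), TNFRSF12A (0.26), IER3 (0.25) and NFKBIA (0.24), over 5318 cells of 1 library that share depth and culture. NFKBIA encodes an inhibitor of NF-kB. The coefficient of CCL2 with CCL7 was lower in BM, at 0.22. For CCL7 the genes nearest included, after CCL2, SOD2 (0.28), which encodes the mitochondrial superoxide dismutase, NFKBIA (0.22) and ALDH1A3 (0.20). CXCL6 in PB was nearest to CCL2 (0.28), SOD2 (0.26) and CCL7 (0.23). CXCL8 reached 0.18 with CCL2 and 0.16 with FABP5. For CXCL12 in BM the nearest genes were LUM (0.21), VCAN (0.19), DCN (0.18), GJA1 (0.16) and RARRES1 (0.16), and none of the other members was among the 10. LUM, a collagen-binding proteoglycan, lay at 5442 CPM in BM cells with CXCL12 and 3876 CPM in those without. Most of these coefficients are weak and come from sparse counts.

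The members were 14.9%, 63.1% and 81.2% of the UMIs of all 29 listed chemokines found in the files, from a list of 42. CCL26, an eosinophil attractant, gave more UMIs in AT than any other listed chemokine, with 107.1 CPM there, 237.1 CPM in BM and 73.1 CPM in PB. CXCL16, which exists as a membrane-bound and a soluble form, lay at 34.0 CPM, 95.1 CPM and 31.4 CPM. CCL20 was 0.725, 0.174 and 18.3 CPM in AT, BM and PB, and CXCL11 was 0.20, 0 and 10.8 CPM. CXCL14 and CXCL13, a B cell attractant, were highest in BM at 11.9 and 3.26 CPM, while CXCL13 had no UMI in AT or PB. Over the whole list, 5 of 16 chemokines were higher in PB and 5 higher in BM, 8 of 14 were higher in PB than AT and 1 lower, and 11 of 13 were higher in BM than AT. The members, chosen by such values, gave 3 and 1 of these, 5 and 1, and 5, so that the counts are only a description. Between PB and BM, CCL20, CXCL10, CXCL11, CXCL12 and CXCL13 reached 1 CPM only in the source called higher. So did CCL20, CXCL8, CXCL10, CXCL11 and CXCL12 between PB and AT, and CXCL2, CXCL8 and CXCL13 between BM and AT. Over all genes, 2.47% were higher in PB than BM and 6.31% higher in BM, 6.22% were higher in PB than AT and 4.96% lower, and 8.78% were higher in BM than AT.

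Most receptors of chemokines were hardly found. Of 19 listed receptors in the files, 14 had no UMI in AT, 12 in BM and 14 in PB, and CCR2, the receptor of CCL2 and CCL7, and CXCR4, the receptor of CXCL12, had none in any source, which allows up to 0.0721 to 0.0750 CPM. ACKR3 and ACKR4 are atypical receptors, which take up chemokines without classical signalling, and had the most UMIs among the receptors. ACKR3, which binds CXCL12, lay at 2.40, 4.35 and 19.5 CPM in AT, BM and PB. ACKR4, which binds CCL19 and other CC chemokines, lay at 38.2, 2.29 and 9.90 CPM. Of 19 NF-kB and inflammation genes compared between PB and BM, 1 was higher in each direction, with TNFAIP3, a brake on NF-kB, at 3.32 CPM in PB and 0.174 CPM in BM. TNF, IL1B and TLR4 had no UMI in any source. Of 18 interferon genes, 3 were higher in PB than BM and 1 lower, with GBP1 at 12.9 CPM in PB and 1.22 CPM in BM. Of 14 genes for glycosaminoglycan carriers, their enzymes and matrix proteases, 2 were higher in PB and 3 in BM. Among the genes so called, TNFAIP3 and CXCL11 reached 1 CPM only in PB, and IFIT2 and GPC3 only in BM. They were thus counted only through the source called higher. These lists are set beside 2.47% of all genes higher in PB and 6.31% higher in BM, and are a description only.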

How the data were processed

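The AT, BM and PB cultures of a mare were each analysed as 1 scRNA-seq library. The deposited matrices hold raw counts, that is UMIs of each gene in each barcode, which the authors had not normalized. Per the paper's methods, Cell Ranger and the horse build EquCab3.0 were used, and UMIs were counted near annotated 3′ ends with a further run for duplicated features. Members and gene lists were chosen with earlier results of these data known. Named genes were the 7 members, the genes of the fixed lists with the highest level or log2 ratio, and the 10 genes most correlated with a member over cells, some of which are not reported here. Genes named for cells with CXCL6, CXCL8 or CXCL10 and the cells richest in them were picked after their values were seen.

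The filter on barcodes required 2500 to 15000 UMIs, of which no more than 3% were mitochondrial. The study's multiplet calls were not used here. Levels are CPM of summed UMIs, compared as log2(CPM + 1) without a test, since each source had 1 library. A sum of 0 allows up to 3 UMIs (0.0721 to 0.0750 CPM). Odds ratios are Mantel-Haenszel estimates over 10 depth strata, and thinning drew 2500 UMIs per cell without replacement. Intervals used SciPy 1.17.1, the doublet alternative Scanpy 1.11.5 (Scrublet), and the TMM alternative edgeR 4.0.16 in R 4.3.3. The log2 ratio, the odds ratio and thinning were tested on simulated data. Alternatives changed depth, filters, doublets, shared barcodes, proliferating cells, scaling, pseudocount, thresholds and strata. No sequences are shown, because no table of the proteins or promoters was at hand.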

Additional observations from a re-analysis of the deposited data

Results flagged for a closer look

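Chemokine UMIs were also found outside the kept cells. The AT matrix held 6155 barcodes under 2500 UMIs, and 5711 of these were also listed in PB. In those 5711 barcodes the AT library had 523.4 CPM of CCL2, 78.7 CPM of CCL7, 27.9 CPM of CXCL6, 9.15 CPM of CXCL8, 0.813 CPM of CXCL12 and 25.4 CPM of CXCL10. The kept AT cells had 16.3, 4.98, 4.10, 0.325, 2.55 and 0.225 CPM, and the kept PB cells 560.0, 85.7, 27.6, 8.84, 0.553 and 28.7 CPM. Of the 2574 CCL2 UMIs in these AT barcodes, 96.9% lay at barcodes where the PB library had CCL2, while 2856 of the 5711 PB barcodes had it. The 444 AT barcodes under 2500 UMIs that PB did not list had 14.7 CPM of CCL2. Where these UMIs came from was not tested.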

How the results depend on the processing

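No paired analysis was possible because each source had 1 library. The members past a log2 ratio of 1 numbered 4 for PB against BM, 6 for PB against AT and 5 for BM against AT. A pseudocount of 25 CPM left 1, 3 and 1 of these (and 127, 179 and 208 of all genes in place of 1037, 1310 and 1380). Leaving out the 1% of cells richest in each member, an alternative chosen after seeing the data, gave 3, 4 and 4. For PB against BM these were CCL7, CXCL12 and, newly past the limit, CXCL6. For BM against AT, thinning and leaving out cells with a proliferation UMI each gave 4, losing CXCL8, and with barcodes of 500 to 15000 UMIs CXCL8 gave place to CXCL10, which was then higher in AT, where all 125 UMIs of barcodes under 2500 UMIs lay at barcodes that PB also listed. The other alternatives run kept 4, 6 and 5. The log2 ratio of CCL2 in PB over BM was -0.073 when thinned, 0.079 without an upper UMI limit, -0.41 without cells with a proliferation UMI, 0.25 with TMM factors, -0.077 as a mean of single-cell CPM and -0.16 without the richest 1%, so that its sign was not settled. That of CXCL12 was -0.98 with 25 CPM and -4.49 without the richest 1%. The share of CCL2 UMIs in the richest 5% of cells was 39.9% in BM when thinned, 37.5% in BM and 59.9% in PB without cells with a proliferation UMI, and in PB 58.8% with barcodes of 500 to 15000 UMIs, 56.6% without an upper limit and 58.6% without the highest Scrublet scores. The richest 1% held 15% in BM and 25% in PB and the richest 10% held 55.8% and 74.1%, and with the richest 1% left out the values were 32.8% and 49.5%. With at least 2 UMIs of both genes, the odds ratio of CCL2 and CCL7 was 3.39 in BM and 7.11 in PB and that of CCL2 and CXCL6 was 33.7 in PB, and in AT these pairs had 100.7 and 20.97, while CCL2 and CXCL6 in BM reached 2.43 without cells with a proliferation UMI. There the odds ratio of CCL2 and CXCL8 in BM turned from 2.96 to 0.900, with 3 CXCL8 cells left. Leaving out all barcodes that another library also held left no PB cell, and leaving out the 1% of cells richest in CXCL8 took out every cell that held it, so these gave no value. CCL5 had 8 to 11 UMIs per source and CXCL10 had 1 in BM, so that single UMIs decide these levels. The cause of these shifts was not tested.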
